A study of Caenorhabditis elegans with 6 samples.

Results

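Bestrophins and CLC proteins form anion channels and transporters in cell membranes. In *Caenorhabditis elegans* they are encoded by the *best* and *clh* genes, and every gene whose deposited name starts with *best-* or *clh-* was taken, which gave 32 of 47157 gene IDs, 26 bestrophins and 6 *clh* genes. The same 32 IDs carry these symbols in the WBcel235 reference. Bestrophins assemble into pores that pass chloride and bicarbonate and, in the vertebrate proteins studied, open when calcium rises; mutations of human *BEST1* cause a macular dystrophy. CLC proteins work as dimers, some as chloride channels of the plasma membrane and others as chloride/proton exchangers of endosomes and lysosomes. Few of the worm bestrophins have a known function.

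RNA was sequenced from whole young adults of the *blmp-1(s71)* mutant strain and of the wild-type strain N2, with 3 libraries each, grown from synchronized first-stage larvae. The product of *blmp-1* is a transcription factor of the BLIMP1 family that acts in larval timing and in making the cuticle, and the question is how transcript levels differ when the gene is mutated. The labels give s71 as the only allele, with neither its lesion nor the number of animals in a sample. The libraries are called biological replicates, with no word on separate cultures, so p-values set the difference between strains against the spread between these libraries. *blmp-1* itself had 157, 215 and 92 reads in the mutant libraries and 61, 130 and 165 reads in the N2 libraries, so its transcript was present in both strains and its level does not check the genotype.

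The mutant libraries held 6586154, 13711720 and 9893919 reads on genes and the N2 libraries 5255125, 13319362 and 15218178. Levels below are CPM (a gene's reads scaled to a library total of 1000000) divided by TMM factors, which set the bulk of genes equal between libraries; TPM, which also corrects for gene length, is used to compare 1 gene with another. A gene is called where limma gave a Benjamini-Hochberg adjusted p under 0.05 over all 13756 tested genes. Fold changes are taken on log2(CPM + 1), and those of genes at a few CPM come out smaller than the ratio of their levels. Of the tested genes, 8.84% were called higher and 13.4% lower in the mutant, with a median log2 fold change of 0.07. Higher genes made up 39.7% of these calls. Upper-quartile scaling gave 60.8% and a median of 0.18, no scaling beyond library size 94.2% and 0.35, and the deposited TPM 90.3% and 0.31. Each direction below is thus stated on the TMM scale.

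Of the 24 bestrophins that passed the filter on low values, 10 were called higher in the mutant and 0 lower. They were *best-1*, *best-3*, *best-6*, *best-11*, *best-12*, *best-13*, *best-14*, *best-24*, *best-25* and *best-26*, with means between 1.70 and 4.43 times those of N2. The share of 41.7% stands beside 8.84% of all tested genes called higher. limma gave an unadjusted p under 0.05 for 15 bestrophins (62.5%), all of them higher, against 19.8% of all tested genes higher at that threshold, and neither edgeR nor DESeq2 called a bestrophin lower. The mutant libraries lay above all N2 libraries for 16 of the 24 bestrophins, against 22.6% of all tested genes, and below them for 1, against 26.0%. The median log2 fold change of the 24 was 0.72, between -0.43 and 1.52. *best-4* and *best-6* reached 1 CPM in no N2 library and so passed the filter through the mutant libraries alone; of the other 22 bestrophins, 9 were called higher (40.9%) and 14 had all mutant libraries above N2 (63.6%).

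The calls depended on single libraries. With *blmp-1(s71)* library 1 or 2 left out, limma called 0 bestrophins among 45 and 39 called genes, with 14 and 10 of the 24 higher at an unadjusted p under 0.05, as were 15.2% and 10.7% of all tested genes. With *blmp-1(s71)* library 3 left out limma called 11 of them among 4957 genes. Leaving out N2 library 1, 2 or 3 left 3, 2 and 1 called bestrophins among 267, 178 and 224 genes. On the recovered reads, edgeR called 13 bestrophins without *blmp-1(s71)* library 3 and 0 without any one of the other 5 libraries, where 14 or 15 of the 24 were higher at an unadjusted p under 0.05, beside 14.6% to 22.5% of all tested genes. In each of these 12 fits the log2 fold changes of all 10 genes were positive. For these 10 genes all mutant libraries lay above all N2 libraries. Leaving out 1 library could thus hardly change the sign, which adds no support to the calls. edgeR and DESeq2 on the recovered reads of all 6 libraries called the same 10 genes higher, within 11 and 12 bestrophins, where they called 9.39% and 11.7% of all tested genes higher and 7.87% and 15.7% lower.

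**Figure D1:**
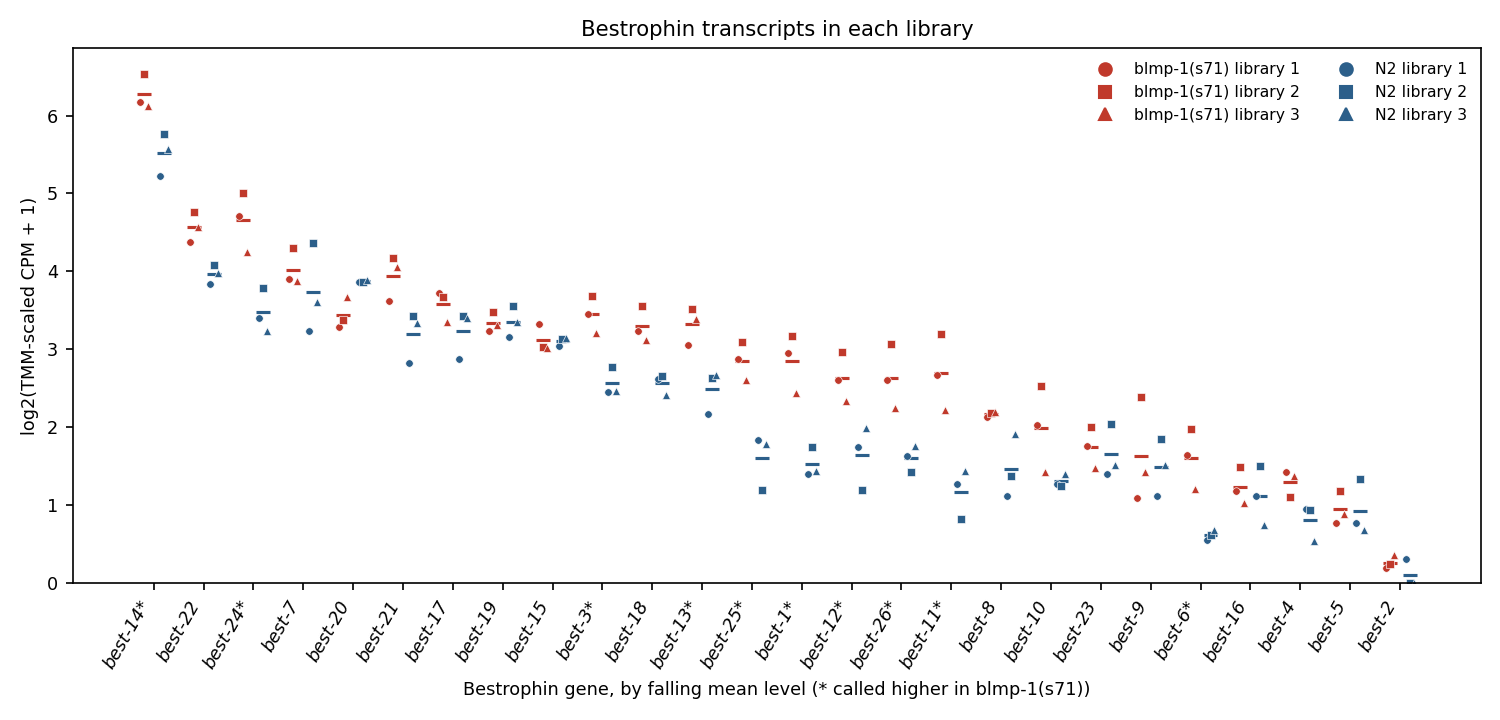
Level of each of the 26 bestrophins as log2(TMM-scaled CPM + 1) on the vertical axis, with genes ordered by mean level on the horizontal axis; points are libraries, short bars are means of 3, *blmp-1(s71)* is left of N2 and an asterisk marks a gene called higher. All 3 mutant points lie above all 3 N2 points for the 10 starred genes, and *best-14* stands apart as the most abundant.

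*best-14* (WBGene00009340, chromosome V, 10557976 to 10560788, plus strand, in 6 exons) was the most abundant bestrophin in both strains. It supplied 32.2%, 32.6% and 32.7% of the bestrophin TPM in the mutant libraries and 29.4%, 31.8% and 31.4% in the N2 libraries. Its level was 71.3, 92.0 and 68.9 CPM in the mutant libraries, against 36.5, 53.2 and 46.5 CPM in the N2 libraries. Every mutant library lay above every N2 library, and the log2 fold change was 0.76 (SE 0.23, limma adjusted p = 0.0387). It had 507, 1527 and 735 reads in the mutant libraries and 156, 699 and 625 in the N2 libraries, the most of any bestrophin.

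The whole family summed to 250.0, 317 and 236 CPM in the mutant libraries, against 141, 190 and 166 CPM in the N2 libraries, a ratio of means of 1.61. The groups did not overlap. Without *best-14* the sum was 190 ± 30.6 CPM in the mutant and 121 ± 16.3 CPM in N2 (SD, n = 3 each), a ratio of 1.58, close to that of the whole family. Levels are relative to the other genes of a library, and whole animals were sequenced. More cells that express a gene, more RNA per cell and less RNA from other cells thus cannot be told apart. This holds here and for every gene below.

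*best-24* (WBGene00022797, chromosome III, 7901033 to 7904473, plus strand) was the next most abundant gene called. Its level was 25.2, 31.0 and 18.1 CPM in the mutant libraries, against 9.60, 12.9 and 8.41 CPM in the N2 libraries. The lowest mutant library stood above the highest N2 library, and the log2 fold change was 1.18 (SE 0.27, limma adjusted p = 0.0337). *best-22* and *best-7*, also among the 4 bestrophins with the highest mean CPM, were not called. *best-22* had 19.8, 26.2 and 22.7 CPM in the mutant libraries, against 13.3, 15.97 and 14.7 CPM in the N2 libraries, with no overlap, a log2 fold change of 0.60 (95% interval 0.11 to 1.09) and a limma adjusted p of 0.0654. It shares 125 exon bases with *sec-24.2* on the other strand, which had a log2 fold change of -0.53 and was not called. *best-7* had 13.9, 18.6 and 13.7 CPM in the mutant libraries, against 8.43, 19.6 and 11.2 CPM in the N2 libraries, which overlap, with a 95% interval of -0.37 to 0.94 for its log2 fold change.

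Bestrophins lie on all chromosomes but X, and 12 of the 26 are on chromosome IV, of which 3 were called. Of the 5 on chromosome I, 3 were called, of the 3 on chromosome II 1, of the 4 on chromosome III 1 and of the 2 on chromosome V both. These totals include *best-2* on chromosome IV and *best-5* on chromosome III, which were not tested. Over all tested genes the share called higher was 8.84%. Positions are those of the WBcel235 annotation, and the sources used here do not give the build behind the deposited values.

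On chromosome I, *best-26*, *best-25*, *best-10* and *best-11* lie in this order within 20605 bases (14200020 to 14220624), the first pair on the plus strand and the others on the minus strand, and *best-8* lies 38356 bases before them. *best-11* had the largest fold change of any bestrophin tested, with 5.34, 8.19 and 3.65 CPM in the mutant libraries against 1.40, 0.761 and 1.71 CPM in the N2 libraries. Its log2 fold change was 1.52 (SE 0.31, limma adjusted p = 0.0289), from 38, 136 and 39 reads in the mutant libraries and 6, 10 and 23 in the N2 libraries. The groups were well apart, but the N2 level rested on few reads. *best-25* had 6.33, 7.53 and 5.06 CPM in the mutant libraries against 2.57, 1.29 and 2.46 CPM in the N2 libraries, and its log2 fold change was 1.25 (SE 0.28, limma adjusted p = 0.0337). *best-26* had 5.06, 7.35 and 3.75 CPM in the mutant libraries against 2.11, 1.67 and 2.38 CPM in the N2 libraries, and it rose by 1.03 on the log2 scale (SE 0.28, limma adjusted p = 0.0346). For both genes every mutant library was above every N2 library.

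The other members of this stretch did not pass the test, though their groups did not overlap either. Such a pattern, with all mutant libraries above all N2 libraries, was seen for 22.6% of all tested genes. *best-10* had 3.09, 4.76 and 1.69 CPM in the mutant libraries against 1.40, 1.37 and 1.64 CPM in the N2 libraries, and *blmp-1(s71)* library 3 lay just above N2 (log2 fold change 0.69, limma adjusted p = 0.0934); without that library it was called. *best-8* had 3.37, 3.55 and 3.56 CPM in the mutant libraries against 1.17, 1.597 and 2.75 CPM in the N2 libraries (log2 fold change 0.70, limma adjusted p = 0.0716). The coding genes between and beside them were looked up after the values were seen. *C49A1.1*, between *best-10* and *best-11*, had at most 1 read in any library. *ZK849.6*, next to *best-26*, had 5.90, 7.65 and 5.25 CPM in the mutant libraries against 1.64, 3.73 and 3.94 CPM in the N2 libraries, with no overlap, and missed the threshold (log2 fold change 0.87, limma adjusted p = 0.0547). *eya-1*, next to *best-11*, overlapped between the strains (log2 fold change -0.29, limma adjusted p = 0.453).

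Other bestrophins lie in neighbouring pairs, whose members differed in level. *best-1* (WBGene00007203, chromosome IV, 13108140 to 13109779, minus strand) had 6.75, 8.01 and 4.40 CPM in the mutant libraries against 1.64, 2.36 and 1.71 CPM in the N2 libraries. All mutant libraries were higher, and the gene rose by 1.32 on the log2 scale (SE 0.28, limma adjusted p = 0.0337). *best-2*, 1719 bases from it on the same strand, was nearly silent, with 1, 3 and 3 reads in the mutant libraries and 1, 0 and 0 in the N2 libraries, at or under the 3-read floor everywhere, so no fold is given. *best-3* (WBGene00015286, chromosome II, 12985 to 16004, plus strand) had 9.98, 11.8 and 8.24 CPM in the mutant libraries against 4.45, 5.86 and 4.54 CPM in the N2 libraries, with no overlap and a rise of 0.88 on the log2 scale (SE 0.25, limma adjusted p = 0.0363). *best-4*, 1102 bases away on the opposite strand, had 1.69, 1.14 and 1.59 CPM in the mutant libraries against 0.936, 0.913 and 0.446 CPM in the N2 libraries and was not called (log2 fold change 0.49, limma adjusted p = 0.133).

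The called genes left to describe are *best-6*, *best-12* and *best-13*. *best-6* (WBGene00015628, chromosome IV) had 2.11, 2.95 and 1.31 CPM in the mutant libraries against 0.468, 0.532 and 0.595 CPM in the N2 libraries, from 15, 49 and 14 reads in the mutant libraries and 2, 7 and 8 in the N2 libraries. Its log2 fold change was 0.99 (SE 0.26, limma adjusted p = 0.0341), and since the filter passed it on its mutant values only, it had to differ to be tested. *best-12* (WBGene00008821, chromosome V) had 5.06, 6.81 and 4.03 CPM in the mutant libraries against 2.34, 1.29 and 2.98 CPM in the N2 libraries, a rise of 0.99 on the log2 scale (SE 0.30, limma adjusted p = 0.0387). *best-13* (WBGene00009323, chromosome IV) had 7.31, 10.4 and 9.46 CPM in the mutant libraries against 3.51, 5.17 and 5.36 CPM in the N2 libraries, a rise of 0.83 on the log2 scale (SE 0.26, limma adjusted p = 0.0446). Both lay higher in every mutant library, and *best-13* was called in none of the 6 limma fits with a library left out.

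Among the mutant libraries, *blmp-1(s71)* library 2 was the highest for all 10 called genes, and *blmp-1(s71)* library 3 the lowest for 9, the exception being *best-13*. Library 2 was also the highest for 9 of the 14 uncalled bestrophins, against 37.6% of all tested genes. Of all genes called higher, library 2 was the highest for 64.6% and library 3 the lowest for 68.4%. In WBcel235, 0 of the 10 share exon bases with another coding gene, while 9 of the 32 members do, at most 220 bases between *best-9* and *try-3* on the same strand. The sources used here do not say whether counting used strand or how reads matching several genes were treated, so reads of overlapping genes or of similar bestrophins may have been moved or lost.

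**Figure D2:**
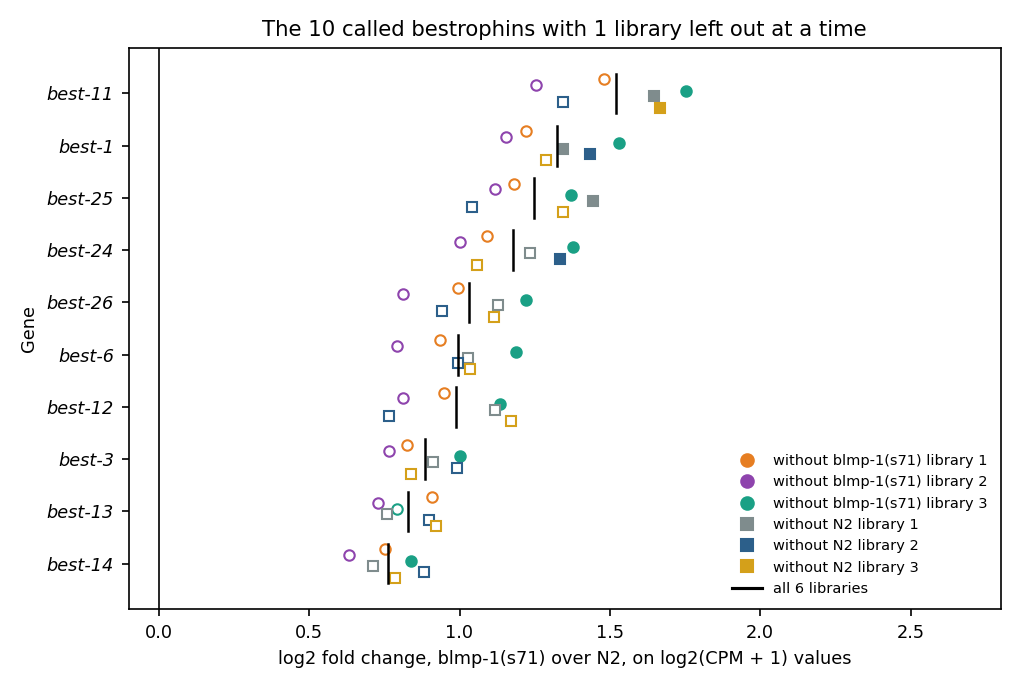
log2 fold change of the 10 called bestrophins, *blmp-1(s71)* over N2 (horizontal axis), in limma fits with all 6 libraries (black bar) and with 1 library left out (circles for mutant libraries, squares for N2 libraries; filled where the adjusted p was under 0.05). All points lie right of 0, from 0.63 for *best-14* to 1.75 for *best-11*, and those without *blmp-1(s71)* library 1 or 2 are all unfilled. Since the strains did not overlap for these genes, points right of 0 were nearly fixed beforehand.

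Of the 24 tested bestrophins, 5 had an adjusted p between 0.05 and 0.10, all with a positive fold change and no overlap between the groups. Besides *best-8*, *best-10* and *best-22* these were *best-18* and *best-21*. Of all tested genes, 8.84% were called higher and 19.8% were higher at an unadjusted limma p under 0.05. For 22.6% all mutant libraries lay above N2. The share of all tested genes with an adjusted p between 0.05 and 0.10 was not counted. *best-18* had 8.43, 10.7 and 7.68 CPM in the mutant libraries against 5.15, 5.32 and 4.32 CPM in the N2 libraries (log2 fold change 0.74, limma adjusted p = 0.0514), and edgeR and DESeq2 called it (adjusted p = 0.0486 and 0.0388). It shares 60 exon bases with *cts-1*, an abundant citrate synthase gene on the other strand at 867 CPM or more in every library. *best-21* had 11.2, 17.0 and 15.6 CPM in the mutant libraries against 6.08, 9.74 and 9.08 CPM in the N2 libraries (log2 fold change 0.75, limma adjusted p = 0.0569; DESeq2 adjusted p = 0.0382).

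The remaining bestrophins showed no call in any direction, and their intervals leave room for changes of moderate size. *best-15* and *best-19* had the values nearest to 0, with log2 fold changes of 0.02 (95% interval -0.50 to 0.54) and -0.02 (95% interval -0.54 to 0.51), and both changed sign under some scalings and with some libraries left out. *best-15* had 8.997, 7.17 and 7.12 CPM in the mutant libraries and 7.26, 7.76 and 7.81 CPM in the N2 libraries. *best-19* had 8.43, 10.1 and 8.90 CPM in the mutant libraries and 7.96, 10.7 and 9.23 CPM in the N2 libraries. For both the groups overlapped, at levels like that of *best-3*, which was called.

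*best-20* was the only bestrophin with every mutant library below every N2 library, at 8.72, 9.34 and 11.7 CPM in the mutant against 13.6, 13.5 and 13.8 CPM in N2, but it did not pass (log2 fold change -0.43, limma adjusted p = 0.165). All tested genes included 26.0% with such a pattern. *best-9*, *best-16*, *best-17* and *best-23* overlapped between the strains, with log2 fold changes from 0.09 to 0.35. *best-17*, at 0.35, shares 74 exon bases with *ttr-7* on the other strand, which was itself called higher (log2 fold change 1.44). *best-5* was filtered out at 0.703, 1.26 and 0.843 CPM in the mutant libraries and 0.702, 1.52 and 0.595 CPM in the N2 libraries, which overlap.

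Per gene length, bestrophins were a family of 1 abundant and many rare transcripts. *best-14* averaged 78.3 ± 14.8 TPM in the mutant and 37.9 ± 6.11 TPM in N2 (SD, n = 3 each), while the median over the 26 gene means was 5.94 TPM in the mutant and 1.89 TPM in N2. In the mutant *best-22* (16.9 ± 2.60 TPM), *best-21* (16.5 ± 3.47 TPM) and *best-24* (16.5 ± 4.74 TPM) came next and differed by less than their spread. In N2 the gene after *best-14* was *best-20* (10.4 ± 0.565 TPM), followed by *best-22* (8.97 ± 0.704 TPM) and *best-21* (7.75 ± 1.55 TPM), with *best-24* at 5.69 ± 1.37 TPM. TPM was not scaled between libraries, and the family's TPM sum, 241 ± 45.4 in the mutant and 123 ± 15.5 in N2, gave a ratio of 1.97.

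**Figure D3:**
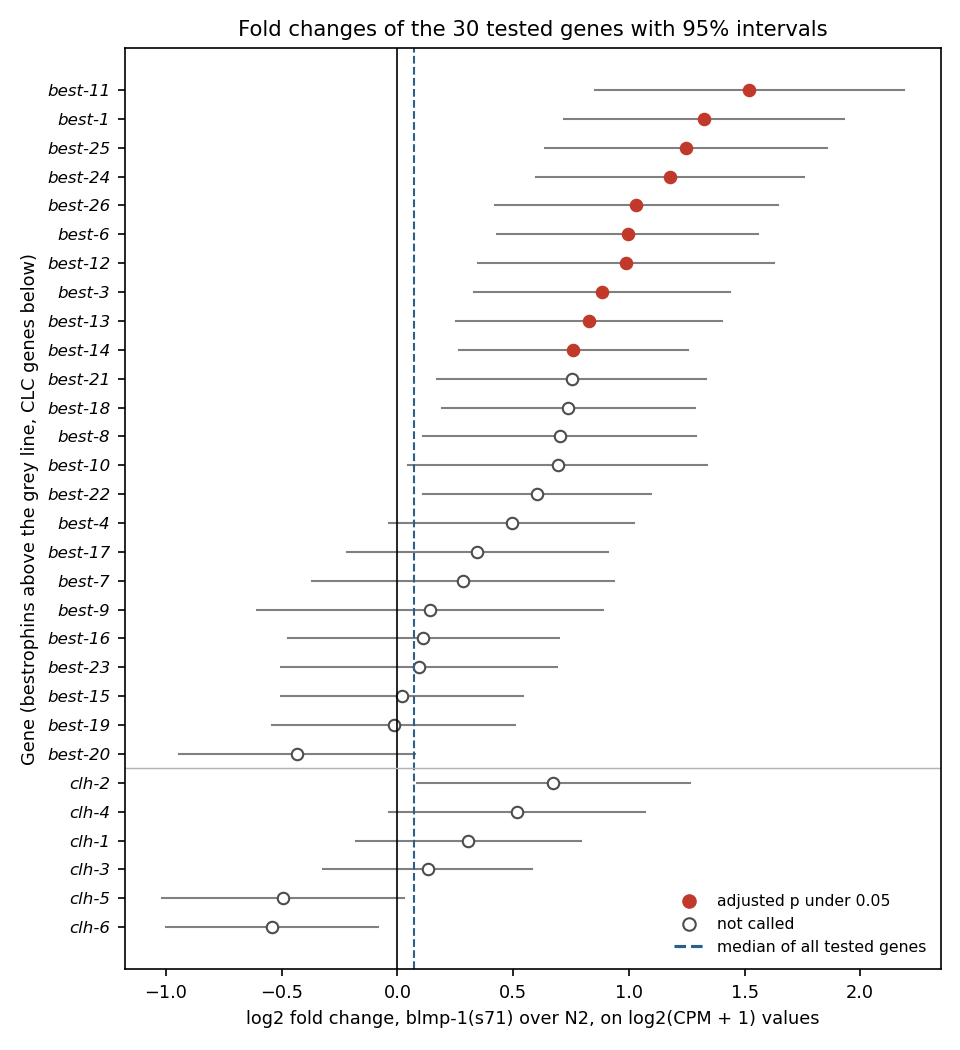
log2 fold change of the 24 tested bestrophins and the 6 *clh* genes, *blmp-1(s71)* over N2 (horizontal axis), with 95% intervals from limma; filled points are called and the dashed line is the median of all tested genes, 0.07. The 10 filled points are all bestrophins right of 0, and the *clh* genes lie on both sides of it.

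Of the 6 *clh* genes, 0 were called by limma, edgeR or DESeq2 in either direction, while limma called 22.3% of all tested genes. At an unadjusted p under 0.05 limma had 2 of the 6, *clh-2* and *clh-6*, which pointed in opposite directions, while 44.8% of all tested genes had such a p in either direction. All mutant libraries lay above all N2 libraries for 2 of the 6 and below them for 1, against 22.6% and 26.0% of all tested genes. The median log2 fold change of the 6 was 0.22, against 0.07 over all tested genes. Whether bestrophins and *clh* genes differ in their response was not tested. The family sum was 244, 213 and 259 CPM in the mutant libraries and 262, 228 and 269 CPM in the N2 libraries, which overlap.

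The plasma membrane type is encoded by *clh-1* to *clh-4*, and all 4 had positive fold changes below the threshold. *clh-1* (WBGene00000528, chromosome II, 11846507 to 11856461, minus strand), a channel of epidermal cells and of glia of the head sensory organs, averaged 48.9 ± 5.65 TPM in the mutant and 33.2 ± 7.90 TPM in N2, beside 33.2 ± 7.72 TPM in the mutant and 38.5 ± 4.13 TPM in N2 for *clh-5* (SD, n = 3 each). These TPM were not scaled between libraries and serve to compare genes within a strain. On the TMM scale *clh-1* had 119, 94.4 and 105 CPM in the mutant libraries and 103, 69.2 and 86.7 CPM in the N2 libraries. The groups overlapped, and the log2 fold change was 0.31 (95% interval -0.18 to 0.79, limma adjusted p = 0.291).

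*clh-3* (WBGene00000530, chromosome II, 7217943 to 7225914, minus strand) encodes the channel that opens in oocytes when they swell or mature and that also acts in egg-laying neurons. Its level was 26.1, 27.9 and 27.1 CPM in the mutant libraries and 26.4, 23.7 and 23.9 CPM in the N2 libraries. The groups overlapped, with a log2 fold change of 0.13 (95% interval -0.32 to 0.58, limma adjusted p = 0.634). Over the same libraries, 8 of 11 oocyte markers were called lower, against 13.4% of all tested genes.

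*clh-2* (WBGene00000529, chromosome II, 11351899 to 11370316, plus strand) had 6.47, 5.48 and 3.93 CPM in the mutant libraries against 3.51, 2.28 and 2.98 CPM in the N2 libraries. The groups did not overlap, the log2 fold change was 0.67 (95% interval 0.08 to 1.26) and the limma adjusted p was 0.0795. It passed with library size alone, and at a log2 fold change of 0.84 without *blmp-1(s71)* library 3. These fits called 2422 and 4957 of the 13756 tested genes. *clh-4* (WBGene00000531, chromosome X, 4094867 to 4100573, minus strand), known from the excretory cell, had 4.36, 4.52 and 3.56 CPM in the mutant libraries against 2.57, 2.13 and 3.12 CPM in the N2 libraries. It too did not overlap between the strains, and it missed the threshold (log2 fold change 0.52, 95% interval -0.04 to 1.07, limma adjusted p = 0.133). Its mean over all libraries, 1.33 TPM, was the lowest of the *clh* genes.

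The members related to the intracellular CLC exchangers had negative fold changes. *clh-6* (WBGene00000533, chromosome V, 12060234 to 12063368, minus strand) encodes a lysosomal protein that helps to keep lysosomes intact. Its level was 33.5, 28.0 and 37.5 CPM in the mutant libraries against 50.3, 46.9 and 47.2 CPM in the N2 libraries. Every mutant library was below every N2 library, with a log2 fold change of -0.54 (95% interval -0.998 to -0.09, limma adjusted p = 0.0714). *clh-5* (WBGene00000532, chromosome II, 9094710 to 9098605, minus strand), related to the endosomal exchangers of mammals, had 54.5, 52.5 and 82.3 CPM in the mutant libraries and 76.3, 83.6 and 105 CPM in the N2 libraries. *blmp-1(s71)* library 3 stood within the N2 range, so the groups overlapped (log2 fold change -0.50, 95% interval -1.02 to 0.03, limma adjusted p = 0.127). Without that library both genes were called lower, at log2 fold changes of -0.70 for *clh-5* and -0.64 for *clh-6*. That fit called 4957 of the 13756 tested genes.

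As a share within the family, *clh-5* and *clh-6* together made up 40.2%, 42.2% and 50.7% of the *clh* TPM in the mutant libraries, against 52.8%, 61.8% and 61.0% in the N2 libraries. The mutant libraries were all lower, with *blmp-1(s71)* library 3 the nearest to N2. This grouping was chosen after the values were seen and was not tested. *clh-1* made up 47.3%, 43.1% and 38.6% in the mutant libraries and 37.3%, 28.6% and 30.3% in the N2 libraries.

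**Figure D4:**
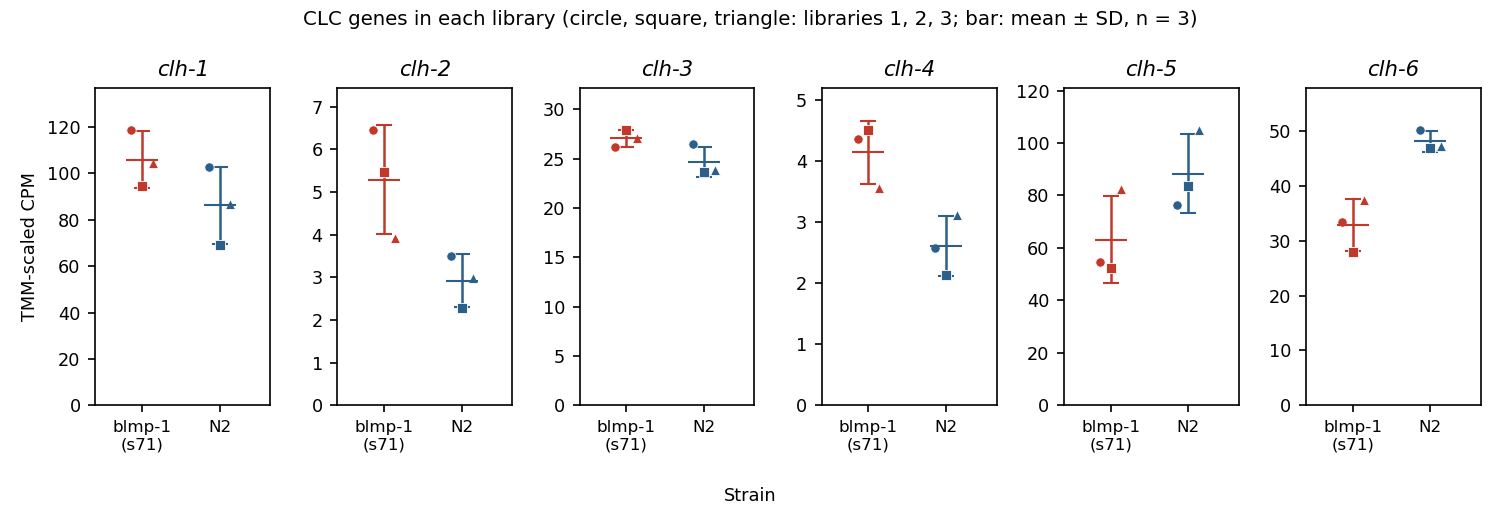
TMM-scaled CPM (vertical axes, each from 0) of the 6 *clh* genes in *blmp-1(s71)*, left, and N2, right; points are libraries and bars are mean ± SD of 3. The strains do not overlap for *clh-2* and *clh-4*, higher in the mutant, and *clh-6*, lower in the mutant, and none of the 6 genes was called. Of all tested genes, 22.6% lay higher and 26.0% lower in the mutant without overlap.

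Other genes of chloride transport, a list of 24 made up of cotransporters, anion exchangers, the SLC26-type *sulp* family, further channel families and the kinases that act on CLH-3, gave 4 called higher and 1 called lower among 22 tested (18.2% and 4.55%, against 8.84% and 13.4% of all tested genes). Their median log2 fold change was 0.20. The genes called higher were anion transporters. *sulp-6* had 14.2, 17.6 and 11.9 CPM in the mutant libraries against 7.72, 5.71 and 7.14 CPM in the N2 libraries, with no overlap and a rise of 0.98 on the log2 scale (SE 0.25, limma adjusted p = 0.0341). *sulp-2* had 11.7, 18.5 and 18.2 CPM in the mutant libraries against 5.38, 9.13 and 7.96 CPM in the N2 libraries, again with no overlap (log2 fold change 1.01, SE 0.28, limma adjusted p = 0.0349). *sulp-5*, at 2.67, 5.30 and 3.09 CPM in the mutant libraries against 0.936, 1.75 and 1.64 CPM in the N2 libraries, rose by 0.92 on the log2 scale (limma adjusted p = 0.0425).

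*abts-3*, of the bicarbonate transporter family, rose by 0.72 on the log2 scale, with 24.8 ± 3.36 CPM in the mutant and 14.5 ± 0.950 CPM in N2 (SD, n = 3 each, limma adjusted p = 0.0412). *icln-1*, related to the ICln proteins that were first described as regulators of chloride currents and that also act in the assembly of splicing particles, fell by 0.80 on the log2 scale, with 35.7 ± 7.42 CPM in the mutant and 62.5 ± 8.40 CPM in N2 (limma adjusted p = 0.0354). With library size alone or the deposited TPM *icln-1* was not called. The kinase *gck-3*, which inhibits CLH-3, and *wnk-1*, which acts above it, had log2 fold changes of -0.12 and -0.60 and were not called. N2 library 1 held 632 CPM of *wnk-1* and the other N2 libraries 209 and 234 CPM, and without N2 library 1 its log2 fold change was 0.0012. With a library left out, limma called 4 genes of the list higher without *blmp-1(s71)* library 3, 1 without N2 library 1 and none without any of the other 4. Among the same 6 fits, *icln-1* passed only in the one without *blmp-1(s71)* library 3. That fit called 4957 of the 13756 tested genes, 2042 of them higher, and the fit without N2 library 1 called 231 higher.

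The sums of several tissue marker lists were higher in the mutant, as was that of the bestrophins. The summed level of 9 neuronal markers was between 530 and 613 CPM in the mutant libraries and between 382 and 435 CPM in the N2 libraries, with 4 called higher. The 5 excretory canal markers summed to between 129 and 185 CPM in the mutant libraries and between 69.0 and 108 CPM in the N2 libraries, with 1 called higher. The 10 molting genes summed to between 256 and 1144 CPM in the mutant libraries and between 132 and 224 CPM in the N2 libraries, with 2 called higher, and 3 of 6 sperm markers were called higher (155 to 213 CPM in the mutant libraries and 88.9 to 119 CPM in the N2 libraries). None of these markers was at 0 in any library, and none of the 4 sums overlapped between the strains. Of all tested genes, 8.84% were called higher, and 22.6% had all mutant libraries above all N2 libraries. These shares are of single genes and give no baseline for sums over several genes.

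Oocyte and germline markers differed the other way. The 11 oocyte markers summed to between 1040 and 3638 CPM in the mutant libraries and between 4307 and 7242 CPM in the N2 libraries, with 8 called lower, and 5 of 7 germline markers were called lower (936 to 1827 CPM in the mutant libraries and 2122 to 2858 CPM in the N2 libraries). Of all tested genes, 13.4% were called lower, and 26.0% had all mutant libraries below all N2 libraries. Those shares too are of single genes and not of sums. *blmp-1(s71)* library 3, the lowest mutant library for 9 of the 10 called bestrophins, was also the mutant library nearest to N2 in both lists.

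The sums of the next 4 lists overlapped between the strains, and limma called 0 of their genes (0 also at an unadjusted p under 0.05). The 4 amphid sheath glia markers, of which 1 was at 0 in some library, summed to between 24.9 and 58.3 CPM in the mutant libraries and between 23.3 and 45.9 CPM in the N2 libraries. The 6 intestinal markers summed to between 3799 and 4155 CPM in the mutant libraries and between 3579 and 4399 CPM in the N2 libraries, and body wall muscle and pharynx were wider still, from 8160 to 13141 and from 358 to 987 CPM in the mutant libraries and from 5634 to 14984 and from 229 to 1065 CPM in the N2 libraries. The 6 epidermal markers summed to between 1529 and 1983 CPM in the mutant libraries and between 2490 and 3091 CPM in the N2 libraries, with 2 called lower. The sum was lower in the mutant, while the median log2 fold change of the 6 was 1.08. An unadjusted limma p under 0.05 in either direction was found for 5 of the 6, against 44.8% of all tested genes. Apart from the 1 glial gene no marker of the 11 lists was at 0 in any library. The part of these tissues in the levels of the bestrophins and *clh* genes was not tested.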

How the data were processed

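RNA from whole young adults, 3 *blmp-1(s71)* and 3 N2 libraries grouped by their titles, was extracted with TRIzol and sequenced from TruSeq libraries, per the labels' protocols. The authors deposited 1 CPM and 1 TPM value per gene and library, per the file headers; each sums to 1000000 in every library. The submitters' processing notes list HISAT2 2.1.0, Trimmomatic 0.36, DESeq2 1.22.0 and featureCounts 1.6.3 without saying what each did, and build, annotation, strand and multi-mapping reads are not stated in any source used here.

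CPM were divided by TMM factors (0.813 to 1.21) and log2(CPM + 1) was fitted with limma 3.58.1 in R 4.3.3 (trend, robust, group as the only term) for genes with at least 1 CPM in at least 3 libraries. The fit was tested on simulated data. All nonzero CPM (100% per library, within 0.01 reads) were whole multiples of 1 read; 3 reads were worth 0.197 to 0.571 CPM. These reads were also tested with DESeq2 1.42.0 and edgeR's quasi-likelihood fit (4.0.16). Depth limits the precision of members with few reads, and statements from reads cover counting error only.

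Named with full values were all called members, all *clh* genes, the 4 bestrophins with the highest mean CPM, members with an adjusted p between 0.05 and 0.10, and up to 6 called genes of the chloride list, beside other members more briefly. Members, lists (chloride transport, and markers of oocyte, germline, sperm, intestine, epidermis, molting, neuron, amphid sheath glia, excretory canal, body wall muscle and pharynx) and tests were chosen with earlier results of these data known. Of the deposited IDs, 43985 were in the reference, and 11 symbols turned into dates were restored by ID. Alternatives were other scalings, pseudocounts of 0.1, 0.5 and 2, TPM, no filter, edgeR, DESeq2, a replicate block and left-out libraries. A combined table was left out, since the single-library files hold the values needed.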

Additional observations from a re-analysis of the deposited data

How the results depend on the processing

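The 10 called bestrophins were also called, in the same direction, with library size alone, upper-quartile scaling, DESeq2 size factors, the deposited TPM, all 3 other pseudocounts, edgeR and DESeq2, with 10 to 14 bestrophins called higher. The bestrophin median stood 0.65 above that of all genes with TMM, 0.64 above it with upper-quartile scaling, and 0.63 above it both for TPM and for library size alone. With no filter on low values limma tested 22878 genes and called 115, among them 0 members and 0 of the chloride list in either direction; more genes were then adjusted over. Without both libraries numbered 1 it called 125 genes, 0 members and 0 of the chloride list in either direction. The chloride list had 0 called lower with library size alone and with TPM.

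With 1 library left out, limma called 39 to 4957 genes, 0 to 12 members higher and 0 to 2 lower, and 0 to 4 of the chloride list higher and 0 to 1 lower. edgeR with 1 library left out, added after the data were seen, called 5 to 5581 genes (54 without *blmp-1(s71)* library 1 and 165 without N2 library 1), 0 to 14 members higher and 0 to 2 lower, and 0 to 5 of the chloride list higher and 0 to 1 lower. The cause of these differences was not tested.

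Same-numbered libraries of the strains did not all deviate together (correlations of 0.35, 0.44 and -0.09 for numbers 1, 2 and 3), so the numbers were not taken as pairs. With a replicate block limma called 5877 genes, 14 bestrophins higher, 2 members lower (*clh-5* and *clh-6*) and 3 of the chloride list lower; edgeR with the block called 5068 genes, 13 bestrophins higher, 1 member lower (*clh-6*) and 2 of the chloride list lower.

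Among uncalled members some signs changed. *best-19* had log2 fold changes of 0.11 with upper-quartile scaling, 0.22 with TPM, 0.28 with library size alone, 0.0069 with edgeR, 0.011 with edgeR and the block, and 0.015 without both libraries numbered 1. *best-15* had -0.015 with DESeq2 size factors and -0.035 without both libraries numbered 1. With 1 library left out, limma's lowest and highest values were -0.23 and 0.37 for *best-9*, -0.13 and 0.076 for *best-15*, -0.079 and 0.30 for *best-16*, -0.083 and 0.082 for *best-19*, and -0.034 and 0.29 for *best-23*. edgeR's values of changed sign were -0.38 for *best-9*, -0.064 for *best-15*, -0.049 and -0.14 for *best-16*, 0.055, 0.018 and 0.11 for *best-19*, and -0.076 and -0.021 for *best-23*. Depth limits *best-2*, *best-5*, *best-4* and *best-6*, whose N2 libraries held at most 20 reads each.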
